A study of Mus musculus with 12 samples.

Results

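Transcription factors of ventrally born GABAergic neurons were followed through fetal mouse cortex and hippocampus with and without the splicing regulator Srrm4. The set is a fixed list of 9 genes (Dlx1, Dlx2, Dlx5, Dlx6, Lhx6, Lhx8, Sp8, Sp9 and Nkx2-1), and the Ensembl identifiers of the 22667 genes in the deposited tables were matched to symbols to find them. There were 8 of the 9 in the tables, and all 8 passed the filter on low counts; the identifier of Lhx8 in the annotation used here, ENSMUSG00000096225, had no matching row, and Lhx8 is not analysed here. The study compared gene expression by RNA-seq in cortex and hippocampus of control embryos and of embryos lacking functional Srrm4 (also called nSR100, a neuronal splicing factor that promotes inclusion of microexons), all at E18.5. The controls are labelled wild type. The knockout (KO) goes back to EUCOMM stem cells with the conditional nSR100lox allele, aggregated with outbred ICR morulae, and the line was kept on C57Bl/6N. Crossing to B6.C-Tg(CMV-cre)1Cgn/J, whose Cre recombinase is driven by a cytomegalovirus promoter and so is not limited to neurons, removed exons 7 and 8 of Srrm4. There are 2 libraries of each genotype in each tissue, 4 groups in all. Nothing in the labels ties a library to an animal of its own, and the p-values therefore cover only the spread between libraries, part of which may be technical.

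Inhibitory interneurons of cortex and hippocampus are not born there. They arise in the ganglionic eminences of the ventral telencephalon and migrate into the cortical and hippocampal walls before birth. Nkx2-1 is the homeodomain protein that sets the identity of the medial ganglionic eminence, and Lhx6 is the LIM-homeodomain protein that acts after it and stays on in migrating and settled interneurons of that origin. Dlx1 and Dlx2, and later Dlx5 and Dlx6, are homeodomain proteins of nearly all ventral GABAergic precursors and are known activators of the genes for GABA synthesis. Sp8 and Sp9 are zinc finger proteins of the lateral, caudal and medial eminences. Lhx8 is known for cholinergic neurons of the basal forebrain.

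Total counts ran from 58210499 to 140052443 per library, and 3 counts correspond to 0.0214 to 0.0515 CPM (counts scaled to library size). Srrm4 lay between 24.22 and 27.86 RPKM (reads scaled to gene length and library size) in the 4 control libraries and between 5.68 and 8.12 RPKM in the 4 KO libraries, matching the genotype labels. The tissue labels were checked on 10 markers of hippocampus. Their summed level was 528 to 616 RPKM in hippocampus and 213 to 238 RPKM in cortex. Nfix alone was at 245 to 313 RPKM in hippocampus and 126 to 149 RPKM in cortex. In controls 7 of the 10 had higher fitted levels in hippocampus, Zbtb20, Lef1 and Lhx9 among them. The other 3 (Prdm16, Wfs1 and Dock10) had lower fitted levels there. Some libraries stood apart from their group. In hippocampus control replicate 2, 6 choroid plexus markers summed to 164 RPKM against 18.7 RPKM in replicate 1, with Ttr, a carrier of thyroid hormone made in choroid plexus, at 152 and 13.4 RPKM. In hippocampus KO replicate 1, mitochondrial genes took 4.4% of counts against 3.14% to 3.44% in the other 7 libraries, and 8 red blood cell markers summed to 494 RPKM against 199 to 357 RPKM elsewhere. The summed level of 4 Y-linked genes was 45.5 and 47.0 RPKM in control replicate 2 of cortex and hippocampus, 0.11 and 0.14 RPKM in KO replicate 2, and 7.34 to 14.9 RPKM in the 4 libraries of replicate 1. Their median log2 fold change, KO against control, was -2.57 in cortex and -1.83 in hippocampus. In replicate 2 the sex of the embryos therefore differed along with genotype, and its part in the KO comparisons was not tested.

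The sequences just before the transcription starts of Dlx1, Dlx2, Sp8 and Sp9 are shown because these were the 4 genes of the set whose KO libraries lay above both controls in cortex and below both controls in hippocampus. That pattern, read on scaled CPM, was held by 0.95% of all genes (153 of 16111). On the RPKM scale the Dlx1 groups overlapped in cortex. None of the 4 passed the test of KO against control in either tissue. Each is the 250 bases before an annotated start, 5′ to 3′ on the strand of the gene, from RefSeq on build GRCm38.p6; the authors' tables were made on mm9 and none of their values was placed by these coordinates. Capitals mark matches to 3 motifs searched on both strands, the homeodomain core TAATTA, the GC box GGGCGG known for SP-family proteins, and the Nkx2 motif CAAGTG.
Dlx1, chr2:71529195-71529444, plus strand: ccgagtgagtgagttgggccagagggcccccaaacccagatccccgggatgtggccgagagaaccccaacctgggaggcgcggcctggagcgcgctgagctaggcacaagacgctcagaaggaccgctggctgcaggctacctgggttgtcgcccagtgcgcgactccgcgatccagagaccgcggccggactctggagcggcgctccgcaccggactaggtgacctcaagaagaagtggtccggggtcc
Dlx2, chr2:71546755-71547004, minus strand: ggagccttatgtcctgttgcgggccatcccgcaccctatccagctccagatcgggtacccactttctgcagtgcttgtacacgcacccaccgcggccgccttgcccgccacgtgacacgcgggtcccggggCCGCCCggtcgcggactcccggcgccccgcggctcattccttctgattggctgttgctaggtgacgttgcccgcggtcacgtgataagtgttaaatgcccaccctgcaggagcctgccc
Sp9, chr2:73271676-73271925, plus strand: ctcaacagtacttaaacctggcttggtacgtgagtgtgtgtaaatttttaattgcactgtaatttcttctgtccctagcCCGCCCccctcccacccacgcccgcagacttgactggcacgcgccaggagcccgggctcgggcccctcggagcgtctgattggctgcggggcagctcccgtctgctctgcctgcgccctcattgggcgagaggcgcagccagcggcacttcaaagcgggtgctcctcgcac
Sp8, chr12:118847309-118847558, plus strand, the third of 3 annotated starts: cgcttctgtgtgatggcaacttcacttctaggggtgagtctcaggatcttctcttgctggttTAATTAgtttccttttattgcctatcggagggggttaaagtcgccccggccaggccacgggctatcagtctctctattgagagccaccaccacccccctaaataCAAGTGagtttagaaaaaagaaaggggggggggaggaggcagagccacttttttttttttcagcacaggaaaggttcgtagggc
The Dlx1 window held none of the motifs, the Dlx2 and Sp9 windows a GC box at 119 and 171 bases before the start, and the printed Sp8 window the homeodomain core at 188 and the Nkx2 motif at 84 bases before the start. Of the other two Sp8 windows, window 2 held a GC box 14 bases before its start and window 1 none of the motifs. RefSeq windows were matched for 7 of the 9 genes (11 windows, as Lhx6 and Sp8 each have 3 starts), and for Dlx5 and Dlx6 none was matched. Over the 11 windows, 6 held a GC box, 1 the homeodomain core and 1 the Nkx2 motif. Of all 32851 windows of the same length, 32.7% held a GC box, 4.84% the homeodomain core and 11.6% the Nkx2 motif. The share of G and C was 68% for Dlx1, 66.4% for Dlx2 and 62.4% for Sp9, against a median of 52.4% over all windows. Sp8 windows 1, 2 and 3 held 40.8%, 67.2% and 50%. A match is a run of letters and not a known binding site.

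Dlx1 and Lhx6 were the 2 most abundant factors in every library, and Nkx2-1 was the least abundant in every library. On the RPKM scale, which is per length and so allows genes to be compared, the order in cortex controls was Dlx1 (58.8 ± 4.31), Lhx6 (30.4 ± 1.09), Dlx2 (20.6 ± 0.46), Dlx5 (17.7 ± 1.05), Dlx6 (10.2 ± 0.68), Sp9 (8.575 ± 0.064), Sp8 (3.355 ± 0.23) and Nkx2-1 (3.105 ± 0.078 RPKM, mean ± SD, n = 2 each). Sp8 and Nkx2-1 lay close together in cortex, and their ranges over the cortex libraries overlapped. In hippocampus controls the order was Dlx1 (40.5 ± 7.49), Lhx6 (23.6 ± 0.73), Dlx2 (10.1 ± 0.77), Dlx5 (7.41 ± 1.49), Sp9 (3.295 ± 0.53), Sp8 (3.015 ± 1.03), Dlx6 (2.37 ± 1.40) and Nkx2-1 (0.80 ± 0.13 RPKM). The gaps between Sp9, Sp8 and Dlx6 there were smaller than the spread between the 2 libraries. Within a library, Dlx6 stood above Sp9 in all 4 cortex libraries and below Sp9 in all 4 hippocampus libraries.

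**Figure D1:**
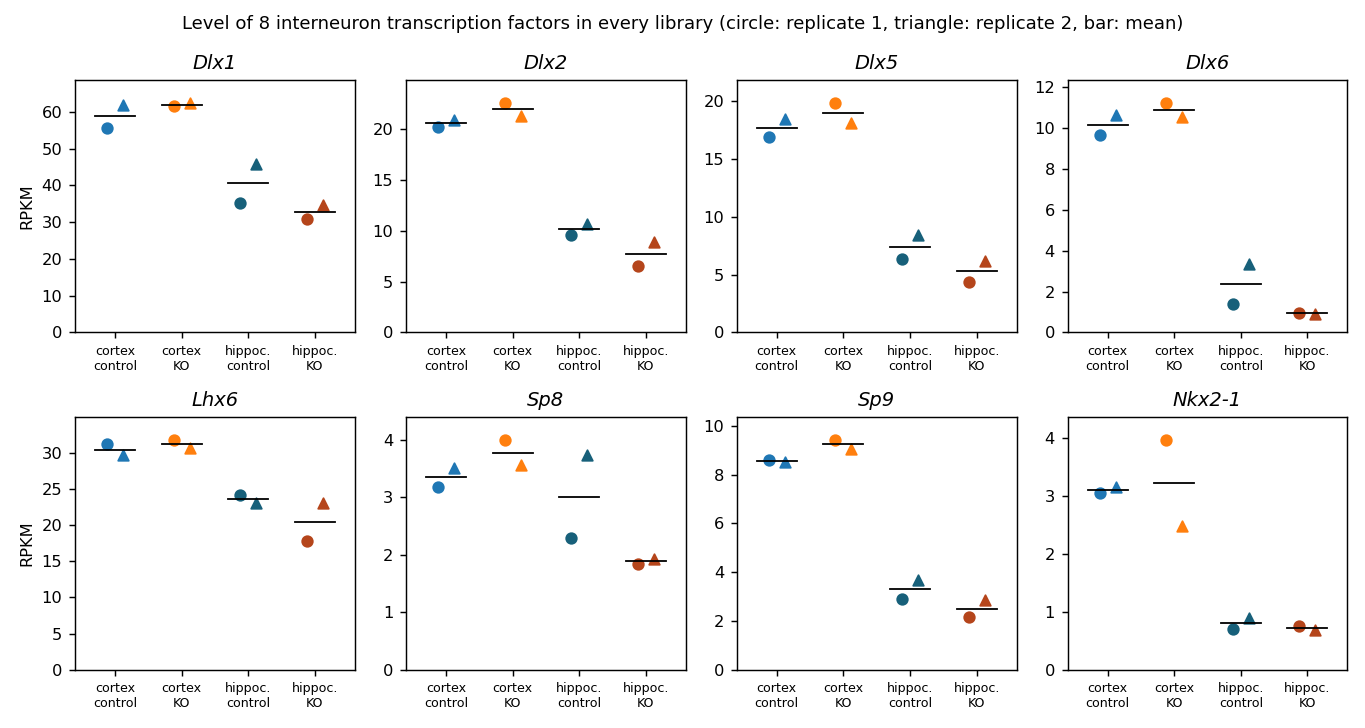
RPKM (linear axis from 0) of the 8 factors in each of the 8 libraries, grouped by tissue and genotype; circles are replicate 1, triangles replicate 2 and bars the group mean. Cortex levels lie above hippocampus levels for 7 of the 8 factors in the controls, and Sp8 is the one whose control groups overlap.

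The first comparison set hippocampus against cortex in the controls. All 8 factors had lower fitted levels in hippocampus, and 7 of the 8 passed the test (edgeR's quasi-likelihood test, Benjamini-Hochberg adjusted p under 0.05 over 16111 genes). Among all genes tested, 33.9% passed in either direction and 14.9% passed as lower in hippocampus. The median log2 fold change was -1.22 over the 8 factors and 0.01 over all genes. Both hippocampus libraries lay below both cortex libraries for 7 of 8 factors, against 32.7% of all genes. In bulk tissue, fewer cells of a type and less RNA per cell cannot be told apart.

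Nkx2-1 and Dlx6 differed most between the tissues. Nkx2-1, the medial eminence factor, was at 3.05 and 3.16 RPKM in cortex controls (1081 and 576 counts) and at 0.71 and 0.89 RPKM in hippocampus controls (230 and 164 counts). The groups did not overlap, with a log2 fold change of -2.04 (SE 0.23, adjusted p = 0.00031, edgeR). Dlx6 was at 9.68 and 10.64 RPKM in cortex controls and at 1.38 and 3.36 RPKM in hippocampus controls (152 and 209 counts), with a log2 fold change of -2.22 (SE 0.32, adjusted p = 0.0010, edgeR). The 2 hippocampus libraries differed from each other more than 2-fold in Dlx6, yet both were far below cortex. Without hippocampus control replicate 1 or 2 the log2 fold change of Dlx6 was -1.70 and -2.93.

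The other Dlx genes and Sp9 showed the same direction with smaller differences. Sp9 went from 8.62 and 8.53 RPKM in cortex controls to 2.92 and 3.67 RPKM in hippocampus controls (log2 fold change -1.46, SE 0.14, adjusted p = 0.00016, edgeR). Dlx5 went from 16.94 and 18.42 to 6.36 and 8.46 RPKM (-1.33, SE 0.18, adjusted p = 0.00083, edgeR). Dlx2 went from 20.24 and 20.89 to 9.58 and 10.67 RPKM (-1.10, SE 0.14, adjusted p = 0.00052, edgeR). None of these 3 genes had overlapping groups. Dlx1, the most abundant, went from 55.71 and 61.81 to 35.22 and 45.81 RPKM (-0.61, SE 0.11, adjusted p = 0.0041, edgeR), a smaller difference than that of its neighbour Dlx2.

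Lhx6 and Sp8 differed least between the tissues. Lhx6 was at 31.18 and 29.64 RPKM in cortex controls and at 24.14 and 23.10 RPKM in hippocampus controls, a log2 fold change of -0.44 (SE 0.12, adjusted p = 0.024, edgeR). That call depended on all 4 control libraries, as leaving out any one of them gave an adjusted p from 0.058 to 0.14. Sp8 was at 3.19 and 3.52 RPKM in cortex controls and at 2.29 and 3.74 RPKM in hippocampus controls, and the groups overlapped. Its log2 fold change was -0.24 (95% interval -0.68 to 0.21, adjusted p = 0.39, edgeR), which leaves room for a fall as large as that of Dlx1. Without hippocampus control replicate 2, Sp8 passed as lower (-0.60, adjusted p = 0.026, edgeR); without replicate 1 its value was 0.06.

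In the KO libraries the same tissue comparison was passed by all 8 factors, each lower in hippocampus, against 40% of all genes passing in either direction and 18.8% as lower. The log2 fold changes were -3.63 for Dlx6, -2.28 for Nkx2-1, -1.99 for Sp9, -1.97 for Dlx5, -1.62 for Dlx2, -1.12 for Sp8, -1.03 for Dlx1 and -0.72 for Lhx6, with adjusted p from 3.5e-05 for Sp9 to 0.0028 for Sp8 (edgeR). Sp8, which did not pass in controls, was at 4.0 and 3.56 RPKM in cortex KO and at 1.85 and 1.92 RPKM in hippocampus KO. All 8 values were further from 0 than in the controls; the test of that difference between genotypes is the interaction given with the knockout results.

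**Figure D2:**
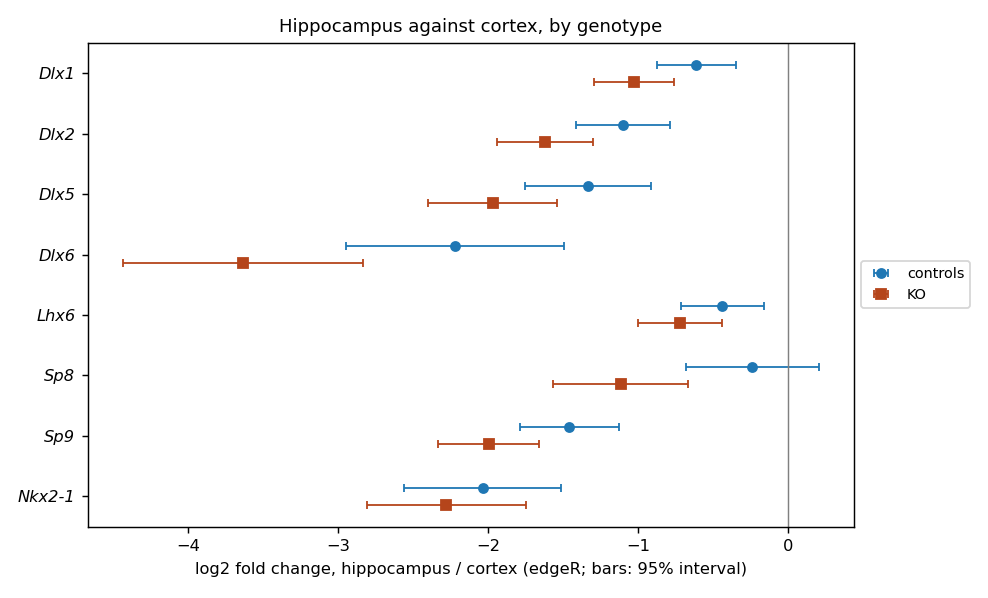
log2 fold change of each factor, hippocampus against cortex, with its 95% interval from edgeR, in controls (circles) and KO (squares). All 16 values lie below 0, from -0.24 for Sp8 in controls to -3.63 for Dlx6 in KO.

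The second comparison asked what loss of Srrm4 did in cortex. None of the 8 factors passed the test, and 0.0186% of all genes did (3 genes, Srrm4 among them). The fitted values of all 8 were slightly above 0, from 0.04 for Lhx6 to 0.18 for Sp8, with a median of 0.10 against -0.00057 over all genes. DESeq2 called none of the 8 either. No factor reached an unadjusted p under 0.05. The KO libraries lay above both controls for 4 of 8 factors (Dlx1, Dlx2, Sp8 and Sp9), against 11% of all genes, read on CPM after TMM scaling; on the RPKM scale the Dlx1 groups just overlap.

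Dlx1 was at 55.71 and 61.81 RPKM in cortex controls and at 61.48 and 62.48 RPKM in cortex KO, with a 95% interval for the log2 fold change from -0.18 to 0.34. Dlx2 was at 20.24 and 20.89 against 22.60 and 21.27 RPKM (interval -0.21 to 0.41), and Sp9 at 8.62 and 8.53 against 9.42 and 9.06 RPKM (interval -0.21 to 0.43). These intervals hold small differences in either direction. Lhx6, at 31.18 and 29.64 against 31.76 and 30.68 RPKM, had overlapping groups and an interval from -0.23 to 0.32. Dlx5 (16.94 and 18.42 against 19.87 and 18.14 RPKM) and Dlx6 (9.68 and 10.64 against 11.24 and 10.52 RPKM) overlapped as well. Nkx2-1 was the least even of the set, at 3.05 and 3.16 RPKM in controls against 3.97 and 2.48 RPKM in KO, and its value turned from 0.07 to -0.34 without cortex KO replicate 1. The sign of Lhx6 also turned when cortex control replicate 2 or cortex KO replicate 1 was left out (-0.015 and -0.0097).

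In hippocampus all 8 factors had fitted levels below control in the KO, but none passed the test, which 0.0248% of all genes did. The median log2 fold change was -0.42 over the set and -0.0043 over all genes. For 6 of the 8 the unadjusted p was under 0.05 (Dlx1, Dlx2, Dlx5, Dlx6, Sp8 and Sp9), against 3.81% of all genes. The same 6 had both KO libraries below both controls, against 15.9% of all genes. Adjusted over all 16111 genes, p was 0.99 for each factor (edgeR). The count of 6 rested on 2 libraries: it was 1 without hippocampus control replicate 2 and 1 without hippocampus KO replicate 1 (where 2.53% and 3.06% of all genes had an unadjusted p under 0.05), and 6 without either cortex control, either cortex KO or hippocampus control replicate 1 (2.23% to 3.48% of all genes). Without hippocampus KO replicate 2 it was 7, in a fit where 14.3% of all genes had an unadjusted p under 0.05. The direction was below 0 for all 8 factors whichever library was left out, and 51.4% of all genes were below 0 in the main fit. The factors varied together across libraries (median Pearson's r of 0.81 after centring on tissue), so their 8 signs are not separate observations. Hippocampus control replicate 2 stood apart from its group in choroid plexus markers. Hippocampus KO replicate 1 stood apart in mitochondrial and red blood cell genes. Y-linked genes differed between control and KO replicate 2. The part of this in the values of the factors was not tested.

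Dlx6 had the largest value. It was at 1.38 and 3.36 RPKM in hippocampus controls (152 and 209 counts) and at 0.97 and 0.91 RPKM in KO (108 and 48 counts), with a log2 fold change of -1.31 (SE 0.35, 95% interval -2.12 to -0.49). The 2 controls differed from each other more than the lower control differed from the KO libraries. Without hippocampus control replicate 2 the value was -0.60, and without replicate 1 it was -1.83 with an adjusted p of 0.022 (edgeR). DESeq2 called Dlx6 (-1.34, adjusted p = 0.027), the one factor of the set called by it, and edgeR did not.

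Sp8 followed, at 2.29 and 3.74 RPKM in hippocampus controls (1212 and 1122 counts) against 1.85 and 1.92 RPKM in KO (991 and 487 counts). Its log2 fold change was -0.70 (SE 0.20, interval -1.15 to -0.25), and -0.33 without hippocampus control replicate 2. Dlx5 was at 6.36 and 8.46 against 4.36 and 6.19 RPKM (-0.52, SE 0.18), and Dlx2 at 9.58 and 10.67 against 6.55 and 8.87 RPKM (-0.43, SE 0.14). In both genes KO replicate 1 was the lowest of the 4 libraries and control replicate 2 the highest. Sp9 was at 2.92 and 3.67 against 2.18 and 2.84 RPKM (-0.42, SE 0.14), and Dlx1 at 35.22 and 45.81 against 30.74 and 34.70 RPKM (-0.33, SE 0.11). Their KO and control values nearly touched, with control replicate 1 just above KO replicate 2.

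Lhx6 and Nkx2-1 had the fitted log2 fold changes nearest 0 of the 8 in KO hippocampus; whether they differed from the other 6 was not tested. Lhx6 was at 24.14 and 23.10 RPKM in controls against 17.86 and 23.00 RPKM in KO, so that KO replicate 1 alone was low, and the groups overlapped on scaled CPM (-0.24, interval -0.52 to 0.04). Nkx2-1 was at 0.71 and 0.89 RPKM against 0.75 and 0.69 RPKM, with overlapping groups and a log2 fold change of -0.17 (interval -0.71 to 0.38).

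**Figure D3:**
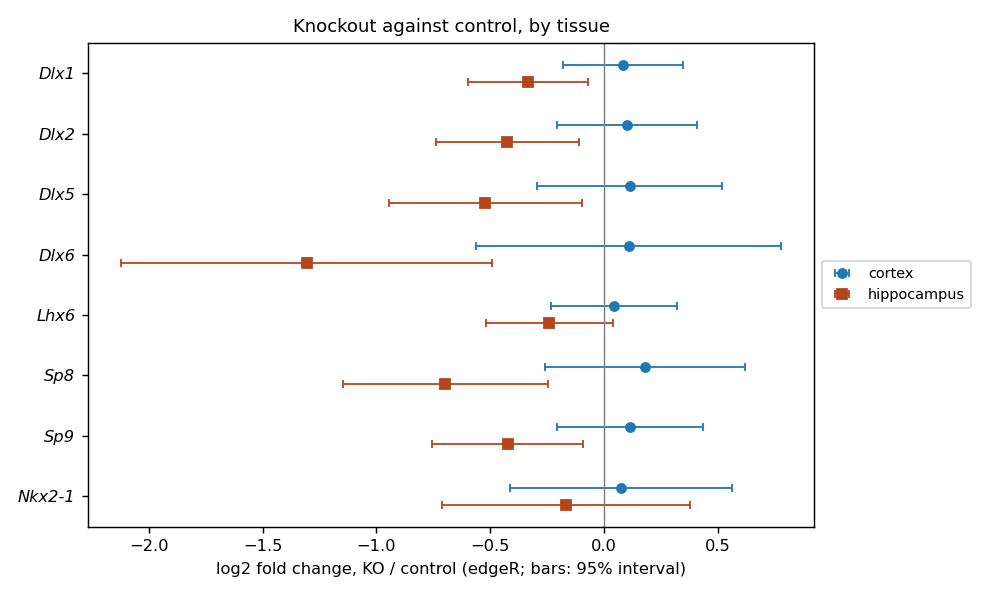
log2 fold change of each factor, KO against control, with its 95% interval from edgeR, in cortex (circles) and hippocampus (squares). The cortex values lie between 0.04 and 0.18 with intervals across 0, and the hippocampus values between -0.17 and -1.31; none passed after adjustment over all genes.

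Whether the KO effect differed between the tissues was tested as an interaction. All 8 values were below 0, with a median of -0.53 against -0.01 over all genes, and none passed the test (adjusted p of 1.00 for each, edgeR), as for 0% of all genes. There were 6 of 8 at an unadjusted p under 0.05 (again Dlx1, Dlx2, Dlx5, Dlx6, Sp8 and Sp9), against 0.981% of all genes (158 genes). That count was 2 when either cortex control, replicate 1 of either KO group or replicate 2 of the hippocampus controls was left out, where 0.484% to 1.15% of all genes had an unadjusted p under 0.05. It was 7 without hippocampus KO replicate 2, against 8.6% of all genes, and 6 without either of the remaining libraries (1.07% and 1.58%). The largest values were -1.41 for Dlx6 (SE 0.46) and -0.88 for Sp8 (SE 0.27). Dlx1, Dlx2, Sp8 and Sp9 were above both controls in cortex KO and below both in hippocampus KO, a pattern held by 0.95% of all genes (153 of 16111). Over both tissues together none of the 8 factors passed, against 0.0621% of all genes; the values ran from -0.45 for Dlx6 to -0.03 for Nkx2-1 with a median of -0.15.

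The level of the factors was then set against that of the GABA genes Gad1 and Gad2, which encode the enzymes of GABA synthesis, and Slc32a1, which encodes the vesicular GABA transporter. Their summed level in cortex was 88.6 and 87.4 RPKM in the controls and 97.7 and 87.7 RPKM in the KO. In hippocampus it was 42.4 and 50.6 RPKM in the controls and 33.2 and 38.4 RPKM in the KO. As a percentage of this sum, the 8 factors together stood at 168% and 179% in cortex control and at 168% and 180% in cortex KO. In hippocampus they stood at 195% and 197% in control and at 197% and 206% in KO. The KO-to-control ratio of these percentages was 1.00 in cortex and 1.03 in hippocampus, so the lower sum of the factors in KO hippocampus came with a lower sum of the GABA genes. Gad1 had a log2 fold change of -0.44 (SE 0.12) and Slc32a1 of -0.49 in KO hippocampus, and neither passed.

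Relative to the GABA genes the hippocampus-to-cortex ratio of the factors in controls ran from 0.43 for Dlx6 to 1.68 for Sp8. Lhx6 made 35.2% and 33.9% of the sum in cortex controls and 56.9% and 45.6% in hippocampus controls, a hippocampus-to-cortex ratio of 1.48. Dlx1 (ratio 1.30) and Sp8 (1.68) were also higher per GABA gene RNA in hippocampus. Dlx2 was close to even (0.93). Dlx5 (0.79), Sp9 (0.73), Nkx2-1 (0.49) and Dlx6 (0.43) were lower in hippocampus on this scale too, in all 4 hippocampus libraries against all 4 cortex libraries. Within hippocampus the KO-to-control ratio was between 0.92 and 1.18 for 6 of the factors. Sp8 was at 0.83 and Dlx6 at 0.53, and the Dlx6 percentages were 3.25% and 6.64% in controls and 2.92% and 2.37% in KO. These ratios are descriptions with no test.

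**Figure D4:**
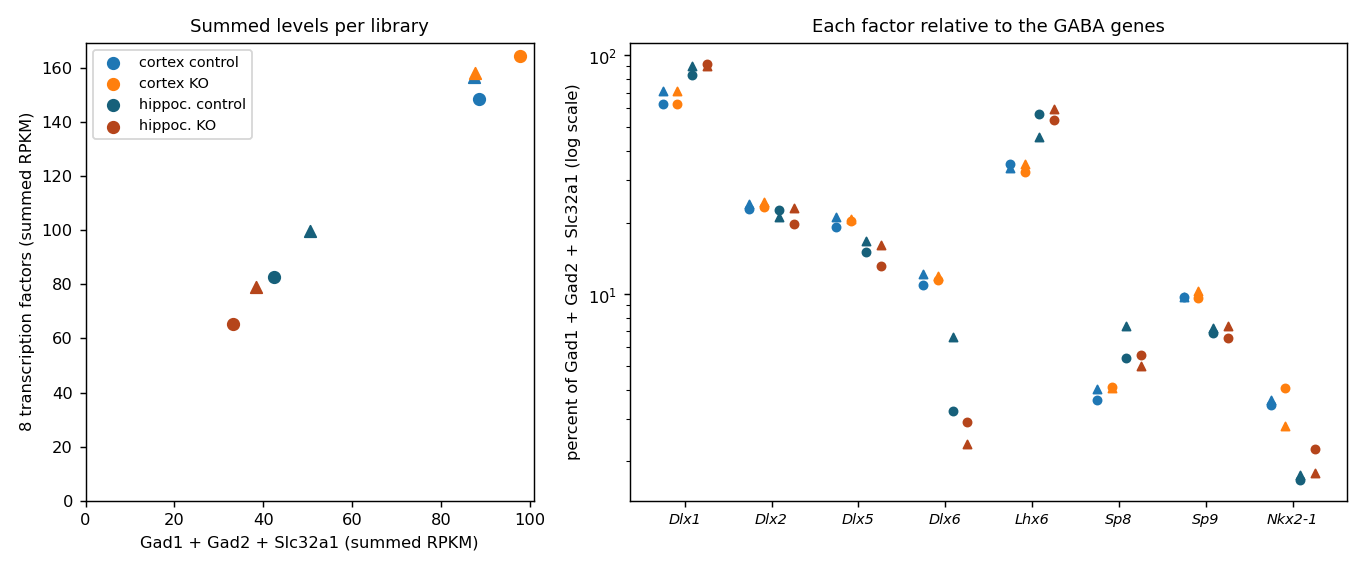
Left, summed RPKM of the 8 factors against summed RPKM of Gad1, Gad2 and Slc32a1 in each library; right, each factor as a percentage of that sum on a log scale, from left to right cortex control, cortex KO, hippocampus control and hippocampus KO in the colours of the left panel (circles replicate 1, triangles replicate 2). The hippocampus KO libraries have the lowest sums on both axes, and Dlx6 and Nkx2-1 lie lower in hippocampus while Lhx6 and Sp8 lie higher.

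Dlx1 with Dlx2, and Dlx5 with Dlx6, are paired genes that lie side by side and share enhancers. The RPKM of Dlx2 was 0.34 to 0.37 times that of Dlx1 in the 4 cortex libraries and 0.21 to 0.27 times in the 4 hippocampus libraries. The RPKM of Dlx6 was 0.57 to 0.58 times that of Dlx5 in cortex. In hippocampus this ratio was 0.22 and 0.40 in controls and 0.22 and 0.15 in KO. The steady Dlx6-to-Dlx5 ratio of cortex was therefore lower in every hippocampus library, and hippocampus control replicate 2 was the highest of those 4. In that library Isl1, a LIM-homeodomain gene of striatal and cholinergic neurons looked at after its values were seen, was at 1.36 RPKM against 0.18 to 0.29 RPKM in the other 3 hippocampus libraries and 10.25 to 12.95 RPKM in cortex. Other ventral genes were mixed in that library. Six3 was at 0.62 RPKM against 0.20 to 0.38 RPKM in the other 3 hippocampus libraries, and Ebf1 at 0.75 against 0.76 to 0.84 RPKM. The summed striatal markers were at 66.1 RPKM there, inside the range of the other 3 (59.1 to 68.1 RPKM). The part of these genes in the Dlx6 result was not tested.

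Across the 8 libraries the factors varied together. Pearson's r of log2 CPM over the 28 pairs ran from 0.81 (Lhx6 with Sp8) to 1.00 (Dlx2 with Dlx5), with a median of 0.96. All 8 had lower fitted levels in hippocampus, though Sp8 did not pass in controls. After centring each gene on its tissue mean the range was 0.18 (Lhx6 with Nkx2-1) to 0.99 (Dlx5 with Sp9). The median was then 0.81. Nkx2-1 was the loosest of the set on that scale, with r from 0.18 to 0.54. These values are descriptions over 8 libraries that differ in depth and tissue.

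Of 12649 other genes with a mean of at least 1 RPKM, Gad1 was the one most like the mean profile of the 8 factors, with an r of 1.00 over the 8 libraries as measured and 0.98 after centring on tissue. Gad1 was at 43.38, 46.76, 47.83 and 46.44 RPKM in the cortex libraries and at 22.63, 29.35, 17.89 and 21.21 RPKM in the hippocampus libraries. The next in order as measured were Plpp2, Rtl8c, Dmrtb1, Rabggta, Rem2, Cacng3, Nnat, Tmem117 and Samd10, with r from 0.99 to 1.00. After centring they were Trim26, Tmem117, Rgs3, Nnat, Dcbld1, an unnamed gene (ENSMUSG00000091865), Rtl8c, 2310033P09Rik and Kcnh2, with r from 0.94 to 0.97. Slc32a1 ranked 46 as measured and 92 after centring, and Gad2 165 and 488.

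Other genes of ventral telencephalic neurons were counted from lists. In none of the lists did a gene pass in either KO comparison. Of 6 genes of GABA synthesis and transport, 4 passed as lower in hippocampus of controls (Gad1, Gad2, Slc32a1 and Abat), and in KO hippocampus all 6 values were below 0 with a median of -0.30. Of 26 other ventral transcription factors, 17 passed as lower in hippocampus of controls and 4 as higher, with a median of -0.53. Meis2, a homeobox gene of the lateral eminence and striatum, fell from 143 and 150 RPKM in cortex to 34.8 and 43.2 RPKM in hippocampus (log2 fold change -1.99, adjusted p = 1.1e-05, edgeR). In KO hippocampus 19 of these 26 values were below 0, but their median was -0.07.

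Markers of settled or migrating interneurons were mixed. Of 24 tested, 15 passed as lower and 6 as higher in hippocampus of controls. Sst (somatostatin) was at 174 and 176 RPKM in cortex and at 41.3 and 40.1 RPKM in hippocampus (-2.18, adjusted p = 4.0e-06, edgeR). Cxcr4, which encodes a chemokine receptor, was higher in hippocampus (2.01, adjusted p = 3.8e-06, edgeR). Reln was higher too, at 45.1 and 38.6 RPKM in cortex controls and 118 and 93.4 RPKM in hippocampus controls. The cell types that hold these RNAs cannot be told from bulk tissue. Sst was at 26.8 and 31.2 RPKM in KO hippocampus, below both controls, with a log2 fold change of -0.52 that did not pass (adjusted p = 0.58, edgeR). The median of the list was -0.08 in KO hippocampus and 0.00 in KO cortex. Among 13 tested relatives of the Dlx, Lhx, Sp and Nkx2 families, 5 passed as higher in hippocampus of controls, Lhx9, Sp5 and Lhx1 with the smallest p, and 3 as lower; their median was 0.03 in KO hippocampus. Dlx3 and Dlx4 were at 0.05 RPKM or less in every library.

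Markers of neighbouring tissue moved with the tissue comparison. All 17 markers of striatal projection neurons passed as lower in hippocampus of controls (median -3.36), and their summed level was 250 to 276 RPKM in cortex against 59.1 to 68.1 RPKM in hippocampus; none was at 0 throughout. Rxrg, Drd2 and Rarb had the smallest p, and Drd2, a dopamine receptor, was at 6.46 and 6.04 RPKM in cortex controls and at 0.41 and 0.51 RPKM in hippocampus controls. The 3 cholinergic markers used, Ngfr, Slc5a7 and Chat, also passed as lower. They summed to 3.61 to 4.58 RPKM in cortex and 1.63 to 1.99 RPKM in hippocampus. Most of that sum was Ngfr, at 2.92 to 3.86 RPKM in cortex and 1.35 to 1.67 RPKM in hippocampus. Chat was at 0.20 RPKM or less in every library, with 0 to 6 counts in hippocampus. The share of striatal or basal tissue in the lower hippocampal levels of the factors was not tested. In KO hippocampus the summed striatal markers were 59.1 and 68.1 RPKM against 63.1 and 66.1 RPKM in controls. Bcl11b, at 20.82 to 26.38 RPKM in the hippocampus libraries, and Foxp1, at 14.99 to 18.3 RPKM, made most of these sums. Whether the sums follow striatal tissue in hippocampus was not tested. The list median was -0.03 in KO hippocampus, and that of the factors was -0.42.

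Other lists stood as follows in KO hippocampus. Choroid plexus markers summed to 32.6 and 32.9 RPKM against 18.7 and 164 RPKM in controls, with 5 of 6 values below 0. Oligodendrocyte lineage markers, which include the ventrally born precursors, had 5 of 5 values below 0 with a median of -0.23, and summed to 33.3 and 32.4 RPKM against 43.1 and 36.9 RPKM. The 12 pallial glutamatergic markers had a median of 0.03, the 10 hippocampal markers 0.01, the 6 proliferation markers 0.00, the 8 microglia markers 0.17 and the 7 red blood cell markers tested 0.71. Of 9 septal and hypothalamic markers tested, 7 values were below 0, with a median of -0.27. The part of these in the values of the factors was not tested.

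**Figure D5:**
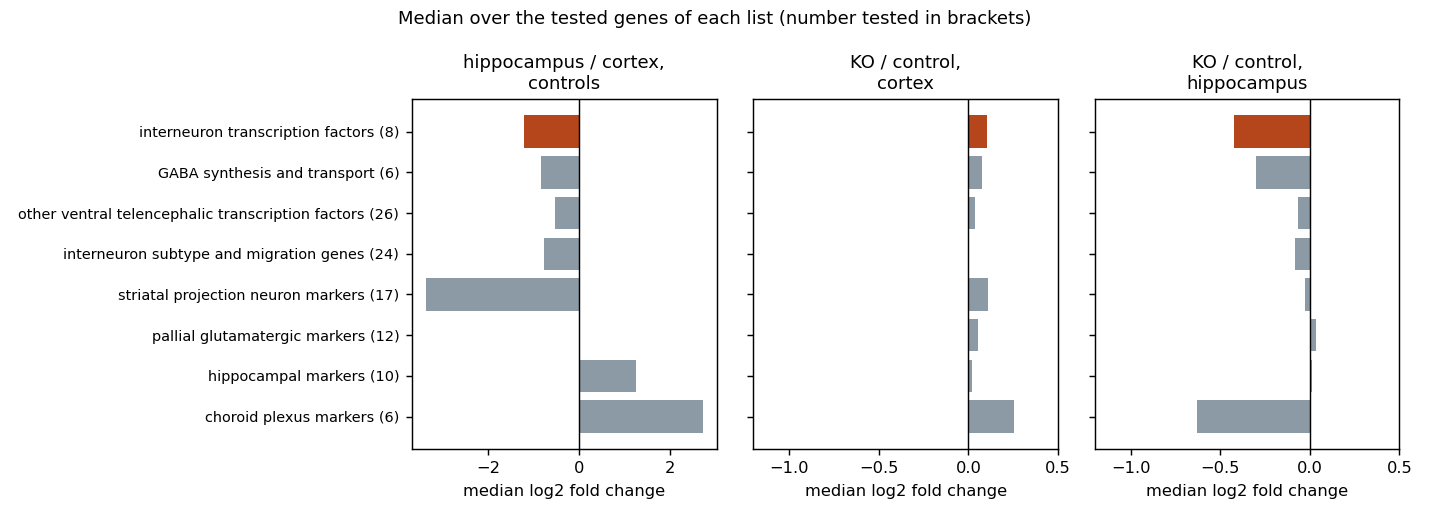
Median log2 fold change of each gene list (bars from 0, number of genes tested in brackets) for hippocampus against cortex in controls and for KO against control in each tissue; the first panel has a wider axis. The 8 factors have medians of -1.22, 0.10 and -0.42, the GABA genes -0.84, 0.08 and -0.30, and the striatal markers -3.36, 0.11 and -0.03.

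Genes next to the factors on the chromosome were examined as well. Of the neighbours in the tables, 8 were tested: Metap1d beside Dlx1, Sdhaf3 beside Dlx5, Morn5 and Rbm18 beside Lhx6, Slc44a5 beside Lhx8, Sp4 beside Sp8, and Ola1 and Cir1 beside Sp9. In hippocampus of controls Sp4 passed as lower (-0.54), Morn5 (1.47) and Slc44a5 (0.40) passed as higher, and the other 5 did not pass. In KO hippocampus their values lay between -0.12 for Ola1 and 0.12 for Metap1d, and none passed. Cir1, whose transcripts share sequence with Sp9 on the opposite strand, was at 18.9 to 21.6 RPKM in all libraries while Sp9 ranged from 2.18 to 9.42 RPKM. Antisense RNAs at the Dlx loci such as Dlx1as and Dlx6os1 were not matched and are not analysed here. With the strand setting not given in the sources used here, reads from opposite strands cannot be told apart. Of the 50-base runs in the transcripts of each factor, 5.19% were shared with Dlx1as for Dlx1, 4.46% with Cir1 for Sp9, 6.09% with any other gene for Dlx6, 1.59% or less for Lhx6 and Nkx2-1, and none for Dlx2, Dlx5 and Sp8.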

How the data were processed

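RNA was purified with Tri Reagent and made into Illumina TruSeq libraries, per the labels' protocols. Bowtie (with no version) and build mm9 are named, per the submitters' processing notes. Counting rule, strand setting and annotation: not given in the sources used here. In a deposited table each Ensembl gene has a whole-number read count and an RPKM value made by the authors. The deposited RPKM column also holds 1114 cells of text ("ne"), read as missing. The 12 samples reach 8 tables, because runs 1 and 2 of replicate 1 share one, and each table was 1 library. The 2 libraries of a group were not copies of each other (chi-square of 31.8 to 64.6 per degree of freedom). Symbols were matched for 20759 of 22667 identifiers through the GENCODE M21 gene names; those without a symbol (1908) took no more than 0.402% of counts.

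Counts were tested with edgeR 4.0.16 under R 4.3.3 (quasi-likelihood F-test, TMM scaling) in 1 fit of the 4 group means, after filterByExpr (minimum count 10, minimum total 15; 16111 genes), two-sided, with Benjamini-Hochberg adjustment over all of them and a threshold of 0.05. The effect over both tissues came from a model of tissue plus genotype. The SE is the log2 fold change divided by the square root of F, and intervals are 95%. Overlap of groups was read on TMM-scaled CPM. Profiles were compared on log2(CPM + 0.5). Alternatives were DESeq2 1.42.0, RLE scaling, no filter, limma 3.58.1 on log2(RPKM + 1), the replicate number as a block, the 4 compared libraries alone, and each library left out; the scripts were tested on simulated data. Counts at an unadjusted p with a library left out were added after the data were seen. The factors and lists were chosen with earlier results of these data known. The text names all listed factors, of each other list up to 3 passing genes with the smallest p and up to 3 with the highest mean RPKM, the 10 genes most like the factors, and their chromosomal neighbours; other names were chosen after their values were seen. Of the listed genes, 2 are not reported here and were left out of their lists.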

Additional observations from a re-analysis of the deposited data

How the results depend on the processing

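There are 2 libraries a group, and the parts of depth and of the spread between libraries in the calls on single factors were not tested. For KO in cortex, 3 genes were called with edgeR, 11 with DESeq2 and 2 to 3 with a library left out; no factor was called in any of these. For KO in hippocampus, 4 genes were called with edgeR, 18 with DESeq2, 2 with limma, 2 with the 4 hippocampus libraries alone and 2 to 7 with a library left out. The factors called there numbered 0 with edgeR, 1 with DESeq2 and 0 to 1 with a library left out (1 without hippocampus control replicate 1), in each case Dlx6. Over both tissues 10 genes were called with edgeR, 37 with DESeq2, 22 with the replicate number as a block and 5 to 9 with a library left out. Hippocampus against cortex gave 5464 calls in controls (3189 without cortex control replicate 1 to 5972) and 6442 in KO (4112 without cortex KO replicate 1 to 6350). Factors called in controls numbered 7, and 6 to 7 with a library left out; in KO they numbered 8 in each of these fits. The interaction gave 0 calls with edgeR, at 158 genes with an unadjusted p under 0.05. Factors at an unadjusted p under 0.05 numbered 1 to 7 in KO hippocampus (with 2.23% to 14.3% of all genes) and 2 to 7 in the interaction (with 0.484% to 8.6% of all genes) with a library left out. Values that changed sign with a library left out were those of Lhx6 (-0.015 to 0.12, with -0.0097 among them) and Nkx2-1 (-0.34 to 0.39) in KO cortex, Lhx6 (-0.15 to 0.010) and Nkx2-1 (-0.24 to 0.10, with 0.045 and 0.0064 among them) over both tissues, Sp8 between tissues in controls (-0.60 to 0.058) and Nkx2-1 in the interaction (-0.55 to 0.18). The cause of these changes was not tested. The labels give every group replicates 1 and 2 but do not say that a number marks a shared animal or day. Deviations of same-numbered libraries correlated most between the tissues of a genotype, at 0.37 in controls and 0.38 in KO. The other pairs of groups gave 0.10 to 0.28. The replicate block, 1 term shared by both genotypes, changed no call on a factor. A pairing of the tissues within each genotype was not modelled in the tissue and interaction tests.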
